A study of Mus musculus with 6 samples.

Results

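The Ras GTPase genes Hras and Nras and 7 genes known as transcriptional targets of extracellular signal-regulated kinase (ERK) were followed in whole tumours after intralesional PV-10. The 7 targets were the phosphatase genes Dusp4, Dusp5 and Dusp6, the Sprouty genes Spry2 and Spry4, and the ETS factor genes Etv4 and Etv5. They were taken by symbol and made up 9 of the 55450 genes in the deposited tables, with 1 row each, and all 9 passed the expression filter. The comparison was between 2 groups of 3 tumours each. In the PV-10 group, subcutaneous flank tumours of the line MTE-Ras in C57BL/6 mice were injected with PV-10, a rose bengal solution given directly into lesions. In the PBS group, tumours of the same line in the same strain received phosphate-buffered saline by the same route. Each tumour came from its own mouse. Cells of both groups came from a tracheal epithelial cancer line of the mouse that had been transformed by an oncogenic RAS mutation, so no tumour without that mutation was compared. The labels used here do not say which Ras gene, or a Ras gene of which species, carries the mutation, and they give no dose, time of collection or age. A Ras transgene from another species would not necessarily be counted at Hras or Nras.

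Ras proteins are small GTPases that switch between a GDP-bound and a GTP-bound state. In the GTP-bound state they recruit RAF kinases, which activate MEK and through it ERK, and an oncogenic mutation holds the switch on. Active ERK raises transcription of genes whose products then damp the same pathway: dual-specificity phosphatases remove the activating phosphates from ERK, and Sprouty proteins act upstream, between receptors and RAF. ETV4 and ETV5, ETS transcription factors of one subfamily, are part of the same output. The repressor Capicua (Cic) is known to keep Etv4, Etv5, Dusp and Spry genes low until ERK signalling relieves it. The level of these RNAs is therefore commonly used as a readout of ERK output, although no protein or phosphorylation was measured here.

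The start regions of 3 targets are shown because Capicua is known to bind TGAATG and TCAATG. RefSeq promoter sequences on GRCm38.p6 were used for 6 of the 9 genes, and Dusp4, Spry4 and Etv4 were not searched. Each line below gives the 250 bases before a RefSeq start, 5′ to 3′ on the strand of the gene, and capitals mark TGAATG or TCAATG, or the reverse complement of either. Dusp6 lies on the plus strand (chr10:99262981-99263230), Spry2 on the minus strand (chr14:105896820-105897069), and the Etv5 window on the minus strand before the more downstream of 2 starts (chr16:22438369-22438618).
Dusp6: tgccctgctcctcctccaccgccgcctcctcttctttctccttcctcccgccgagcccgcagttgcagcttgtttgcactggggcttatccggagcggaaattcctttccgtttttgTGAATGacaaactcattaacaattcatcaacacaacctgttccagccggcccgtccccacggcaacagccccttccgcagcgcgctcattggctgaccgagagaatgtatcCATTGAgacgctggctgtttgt
Spry2: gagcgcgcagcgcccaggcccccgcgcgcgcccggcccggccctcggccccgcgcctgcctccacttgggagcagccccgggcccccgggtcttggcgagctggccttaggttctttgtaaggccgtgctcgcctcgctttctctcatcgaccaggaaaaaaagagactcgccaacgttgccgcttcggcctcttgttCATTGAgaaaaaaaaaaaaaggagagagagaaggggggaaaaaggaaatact
Etv5: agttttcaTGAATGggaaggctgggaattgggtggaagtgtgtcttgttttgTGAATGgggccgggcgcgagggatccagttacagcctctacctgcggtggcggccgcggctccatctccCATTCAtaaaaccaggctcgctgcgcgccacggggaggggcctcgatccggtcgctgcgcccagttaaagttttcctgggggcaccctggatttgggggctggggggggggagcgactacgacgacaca
Dusp6 held TGAATG 133 bases and TCAATG 22 bases upstream of its start. Spry2 held TCAATG 52 bases upstream, and Etv5 held TGAATG at 242, 198 and 129 bases upstream. Dusp5 held TGAATG 37 bases upstream of its RefSeq start, a match that overlaps the Gencode start of the gene at 53529109 on chromosome 19. All 250 bases before each start were searched. Neither motif was found before the starts of Hras and Nras or the more upstream start of Etv5. On either strand, TGAATG occurred in 10.9% and TCAATG in 7.25% of 32851 promoter windows of the same length, and one or the other in 17%. The ETS core GGAA occurred in 93.4% of windows, with 6 matches before Dusp6, 3 before Spry2, 4 in the Etv5 window shown, 3 before Dusp5, 3 before Hras and 2 before Nras. The AP-1 site TGACTCA occurred in 4.46% of windows and before none of the 6 genes. The motifs were chosen after the sequences had been seen, no match of one motif overlapped a match of another in the windows shown, and a match describes the sequence and does not show that a factor binds there.

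In the PV-10 tumours the RNAs of all 7 ERK targets averaged 0.324 to 0.623 of their PBS level, while on the count scale Hras rose and Nras averaged 1.02 times its PBS level. None of the 7 differences passed the test across all genes, and Hras did by a narrow margin. Counts were compared as CPM (per 1e+06 counts of the library), scaled by the trimmed mean of M values (TMM), and a gene was called at an edgeR quasi-likelihood adjusted p under 0.05. Of the 9 genes, 1 was called higher and 0 lower. Among all 22056 genes tested, 5.09% were called, 3.17% as higher and 1.92% as lower. The median log2 change, PV-10 minus PBS, was -1.19 over the 7 targets and 0.30 over all genes tested. The latter includes 7171 genes of up to 1 CPM, whose median was 1.99. Genes of 10 to 100 CPM had a median of -0.37 and those of 100 to 1000 CPM -0.51. An unadjusted p under 0.05 was reached by 6 of the 7 targets, against 30% of all genes.

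The libraries differed in several properties that run alongside these results. Total counts were 60082066, 36730318 and 94203331 in PV-10 tumours 1, 2 and 3 and 87386266, 92608727 and 98717951 in PBS tumours 1, 2 and 3. Protein-coding genes took 71.3% to 76.9% of counts in PV-10 tumours and 87.1% to 89.0% in PBS tumours. For each gene, log2 CPM was taken relative to its mean over the 6 tumours and fitted on transcript length. The slope lay between -0.15 and -0.08 per doubling of length in PV-10 tumours and between 0.07 and 0.13 in PBS tumours. These slopes are relative between tumours, so their sign is not an absolute length bias of a library. Across genes, PV-10 tumour 3 had correlations of 0.909 to 0.930 with the PBS tumours, above its 0.874 with PV-10 tumour 1 and its 0.822 with PV-10 tumour 2, so results are also given without it. The part of each of these properties in the results was not tested, except where a value below bears on it directly.

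**Figure D1:**
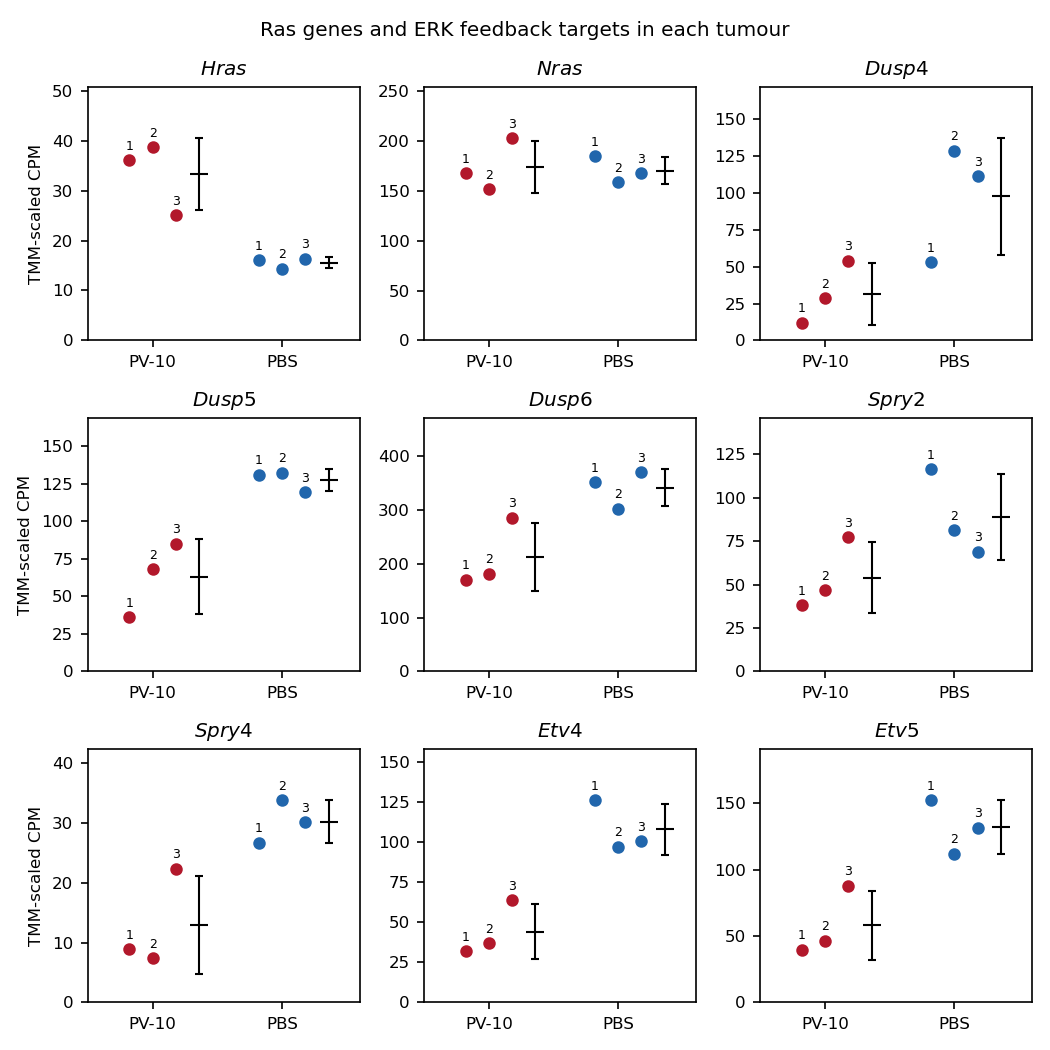
Level of each of the 9 genes in every tumour, as TMM-scaled CPM on a linear axis, with PV-10 left and PBS right in each panel. Numbered points are tumours and black marks show the mean and SD of 3. The 3 PV-10 tumours lie above the PBS tumours for Hras and below them for Dusp5, Dusp6, Spry4, Etv4 and Etv5, and the groups overlap for Nras, Dusp4 and Spry2.

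Hras, a Ras GTPase gene with 7 annotated transcripts (ENSMUSG00000025499.18, mm10 chromosome 7, 141189105 to 141194005, minus strand), had 36.04, 38.7 and 25.1 CPM in PV-10 tumours 1, 2 and 3, against 16.1, 14.3 and 16.3 CPM in PBS tumours 1, 2 and 3. The groups did not overlap, with PV-10 higher, as in 22% of all genes, and PV-10 tumour 3 was the lowest of its group. The mean was 33.3 ± 7.22 CPM in PV-10 tumours and 15.6 ± 1.08 CPM in PBS tumours (SD, n = 3 each). The log2 change was 1.09, with a standard error (SE) of 0.26 and an edgeR adjusted p of 0.0488. The call was lost when any tumour other than PV-10 tumour 3 was left out (adjusted p 0.120 to 0.219) and when each library's trend with transcript length and GC content was removed (log2 change 1.35, adjusted p = 0.0601). Almost all calls were lost in those fits. With 1 such tumour left out, at most 5 genes were called higher and 1 lower, and with the trend removed 0. The deposited TPM scale divides by transcript length and also sets every library to the same total. On that scale Hras had 13.0, 16.3 and 13.9 TPM in PV-10 tumours, against 11.1, 15.2 and 13.9 TPM in PBS tumours. There the groups overlapped, and limma on log2(TPM + 1) gave a change of 0.10 (adjusted p = 0.808). Hras was thus called on the count scale and not on the TPM scale. Relative to the PBS mean, all 9 genes stood lower by TPM than by CPM in every PV-10 tumour. In PV-10 tumour 1 the log2 values by CPM and TPM were 1.211 and -0.032 for Hras and -1.188 and -2.214 for Spry2. For Spry4 they were -1.755 and -2.772, for Dusp4 -2.923 and -3.944, and for Dusp5 -1.819 and -2.844. Spry2, Spry4, Dusp4 and Dusp5 have 1 annotated transcript each, of 2087, 4755, 2740 and 2473 bases. A length that is the same in every tumour cancels from the change of a gene. The mean length implied for Hras by counts over TPM was 1211 bases in PV-10 and 1085 bases in PBS tumours. The parts of length and library total in this shift were not tested.

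Nras (ENSMUSG00000027852.14, mm10 chromosome 3, 103058285 to 103067914, plus strand), the second Ras GTPase gene, had 167, 152 and 203 CPM in PV-10 tumours, against 185, 158 and 168 CPM in PBS tumours. The groups overlapped, with PV-10 tumour 3 the highest and PV-10 tumour 2 the lowest of all 6. The log2 change was 0.03 (SE 0.25, adjusted p = 0.947). On the TPM scale Nras had 17.4, 20.1 and 30.7 TPM in PV-10 tumours, against 32.1, 39.9 and 37.6 TPM in PBS tumours. Those groups did not overlap, and the change on log2(TPM + 1) was -0.70, which was not called (adjusted p = 0.136), so the sign of the Nras difference depended on the scale.

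Because both Ras genes were measured in the same library, their ratio does not depend on library scaling. The TPM of Hras divided by that of Nras was 0.746, 0.813 and 0.452 in PV-10 tumours, against 0.345, 0.381 and 0.369 in PBS tumours. Every PV-10 tumour lay above every PBS tumour, with PV-10 tumour 3 nearest to them. The mean ratio was 0.670 ± 0.192 in PV-10 tumours and 0.365 ± 0.0184 in PBS tumours (SD, n = 3 each). The mean log2 ratio was higher by 0.83 in PV-10 tumours (exact two-sided permutation test, p = 0.1, the smallest p that 3 against 3 tumours can give). From counts in place of TPM the log2 difference was 1.05 (exact permutation p = 0.1). The longest transcript has 2828 bases for Hras and 4470 for Nras, so the ratio can move with the length slopes given above.

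Among the phosphatase genes, Dusp4, whose product acts on ERK and other MAP kinases in the nucleus (ENSMUSG00000031530.6, mm10 chromosome 8, 34807297 to 34819894, plus strand), had 12.03, 28.8 and 54.1 CPM in PV-10 tumours, against 53.1, 129 and 111 CPM in PBS tumours. PV-10 tumour 3 lay just above PBS tumour 1, so the groups overlapped. The log2 change of -1.63 (SE 0.53, adjusted p = 0.0791) had the lowest value and the largest standard error of the 9 genes. On the TPM scale Dusp4 had 1.93, 5.01 and 12.8 TPM in PV-10 tumours, against 14.5, 48.6 and 37.3 TPM in PBS tumours, with no overlap.

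Dusp5, which encodes a nuclear phosphatase specific for ERK (ENSMUSG00000034765.6, mm10 chromosome 19, 53529109 to 53542431, plus strand), had 36.1, 68.3 and 85.0 CPM in PV-10 tumours, against 131, 132 and 119 CPM in PBS tumours. The PBS values were close together and all 3 PV-10 values lay below them, with a log2 change of -1.01 (SE 0.33, adjusted p = 0.0805). On the TPM scale it had 6.45, 13.2 and 22.4 TPM in PV-10 tumours, against 39.95, 55.8 and 44.6 TPM in PBS tumours.

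Dusp6, which encodes the cytoplasmic ERK phosphatase (ENSMUSG00000019960.8, mm10 chromosome 10, 99263231 to 99267489, plus strand), had 171, 181 and 286 CPM in PV-10 tumours, against 352, 303 and 370 CPM in PBS tumours. PV-10 tumour 3 came near the lowest PBS tumour without overlapping it. Its log2 change of -0.68 (SE 0.29, adjusted p = 0.153) was the smallest in size among the 7 targets. By TPM, Dusp6 had 28.8, 33.2 and 70.6 TPM in PV-10 tumours, against 95.8, 118 and 130.4 TPM in PBS tumours, so that all PV-10 values lay below all PBS values.

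Of the Sprouty genes, Spry2, an inhibitor of receptor signalling to Ras and RAF (ENSMUSG00000022114.5, mm10 chromosome 14, 105891947 to 105896819, minus strand), had 38.1, 46.6 and 77.4 CPM in PV-10 tumours, against 117, 81.4 and 69.0 CPM in PBS tumours. PV-10 tumour 3 lay above PBS tumour 3, so the groups overlapped, and Spry2 was the target with the highest adjusted p (log2 change -0.72, SE 0.34, adjusted p = 0.192). On the TPM scale it had 8.18, 10.9 and 24.5 TPM in PV-10 tumours, against 42.7, 41.3 and 31.0 TPM in PBS tumours, and there the groups did not overlap.

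Spry4, a second inhibitor of the family (ENSMUSG00000024427.7, mm10 chromosome 18, 38586247 to 38601415, minus strand), had 8.90, 7.42 and 22.3 CPM in PV-10 tumours, against 26.7, 33.8 and 30.1 CPM in PBS tumours. All PV-10 values were below all PBS values (log2 change -1.23, SE 0.41, adjusted p = 0.0825). It had the lowest TPM of the 9 genes in every tumour, 0.80, 0.72 and 2.96 TPM in PV-10 tumours, against 4.06, 7.12 and 5.65 TPM in PBS tumours. The lowest count of any member was 271, for Spry4 in PV-10 tumour 2, and 3 counts correspond to at most 0.0822 CPM, so none of the 9 genes was near the counting floor, which covers counting error only.

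The ETS factor genes came closest to the threshold among the targets. Etv4 (ENSMUSG00000017724.14, mm10 chromosome 11, 101769742 to 101785371, minus strand) had 31.8, 36.8 and 63.7 CPM in PV-10 tumours, against 126, 96.9 and 100.3 CPM in PBS tumours. The groups did not overlap, and the log2 change was -1.29 (SE 0.32, adjusted p = 0.0505). In TPM, Etv4 had 16.9, 22.8 and 45.9 TPM in PV-10 tumours, against 124, 109 and 105 TPM in PBS tumours.

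Etv5 (ENSMUSG00000013089.15, mm10 chromosome 16, 22381309 to 22439719, minus strand) had 39.6, 46.4 and 87.8 CPM in PV-10 tumours, against 152, 112 and 132 CPM in PBS tumours. PV-10 tumour 3 again stood above the other two PV-10 tumours and below the lowest PBS tumour (log2 change -1.19, SE 0.35, adjusted p = 0.0645). By TPM, Etv5 had 10.7, 14.7 and 30.8 TPM in PV-10 tumours, against 86.05, 55.8 and 81.4 TPM in PBS tumours, also without overlap.

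Across the 7 targets, PV-10 tumour 3 had the highest CPM of the PV-10 group in 7 of 7 genes, and in Hras it had the lowest. The PV-10 and PBS groups did not overlap in 5 of the 7 targets on the CPM scale, each time with PV-10 lower, against 16.8% of all genes. On the TPM scale they did not overlap in 7 of 7. There Nras and the keratin gene Krt18, with log2 changes of 0.03 and 0.05 on counts, also lay lower in every PV-10 tumour. The share of all genes without overlap on the TPM scale was not determined. With limma on log2(TPM + 1), all 7 targets were called lower (changes of -2.31 to -1.46, adjusted p 0.0389 to 0.0471), where 12.5% of all genes were called lower. Without PV-10 tumour 3, edgeR called all 7 lower, with log2 changes of -2.26 for Dusp4 to -0.95 for Dusp6 (adjusted p 0.000954 to 0.0187), and Hras higher (1.26, adjusted p = 0.00197). In that fit 25% of all genes were called higher and 16.4% lower. PV-10 tumour 3 was singled out for its likeness to the PBS tumours, a choice that favours calls, so this fit is no separate support. DESeq2, the tool named in the labels' protocols, called Hras higher (log2 change 1.22, adjusted p = 0.00138), where it called 15.1% of genes higher, and 6 of the 7 targets lower, where it called 6% lower. The exception was Spry2 (log2 change -0.64, DESeq2 adjusted p = 0.119). In PV-10 tumour 3 set alone against the 3 PBS tumours, the 7 targets had log2 changes of -0.84 to -0.19, Hras 0.70 and Nras 0.26, none called. In this fit the lone tumour is assumed to vary like the PBS tumours.

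**Figure D2:**
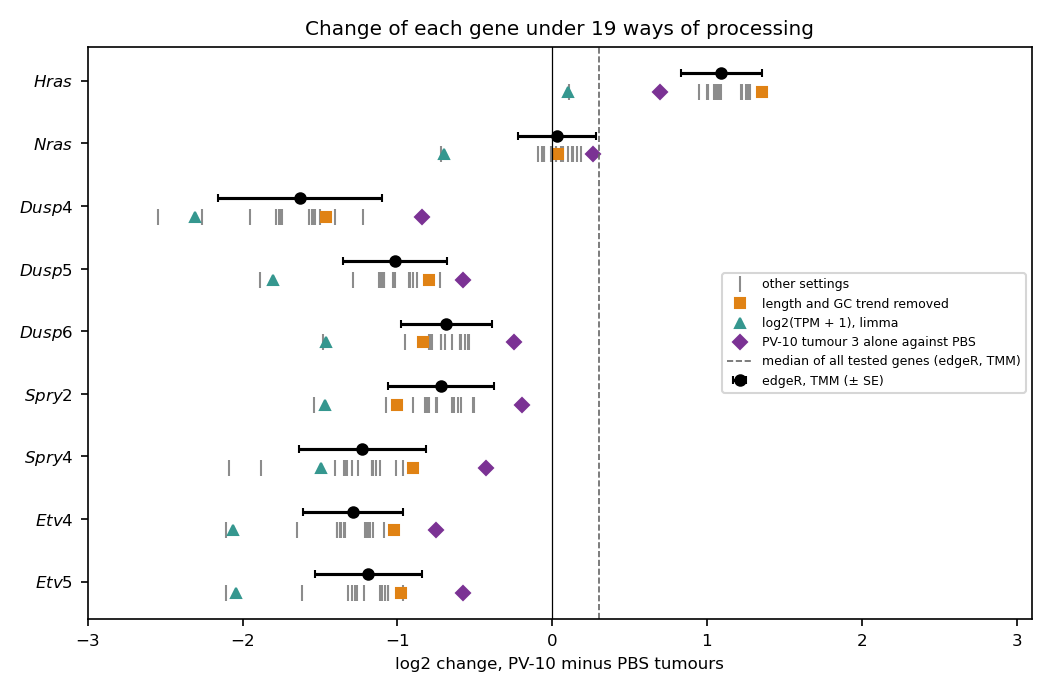
Log2 change, PV-10 minus PBS, of the 9 genes under the main fit (black points with standard error) and 18 other settings (grey marks, with squares for removal of the length and GC trend, triangles for log2(TPM + 1) and diamonds for PV-10 tumour 3 alone). The dashed line is the median of all genes tested, 0.30. Genes of 10 to 100 CPM had a median of -0.37 and those of 100 to 1000 CPM -0.51. All marks of the 7 targets lie below 0, those of Hras above 0, and those of Nras on both sides.

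The order of levels between genes was taken from TPM, which is per transcript length. In PV-10 tumours Dusp6 was highest at 44.2 ± 23.0 TPM, followed by Etv4 at 28.6 ± 15.3 TPM, Nras at 22.7 ± 7.03 TPM and Etv5 at 18.7 ± 10.7 TPM. In PBS tumours Dusp6 averaged 115 ± 17.5 TPM, Etv4 113 ± 10.2 TPM, Etv5 74.4 ± 16.3 TPM and Nras 36.5 ± 4.02 TPM (SD, n = 3 each). Spry2, Hras and Dusp5 stood close together in PV-10 tumours, at 14.5 ± 8.76, 14.4 ± 1.74 and 14.04 ± 8.02 TPM, while in PBS tumours they stood at 38.3 ± 6.40, 13.4 ± 2.11 and 46.8 ± 8.14 TPM. Dusp4 averaged 6.57 ± 5.59 TPM in PV-10 tumours and 33.4 ± 17.4 TPM in PBS tumours, and Spry4 1.49 ± 1.27 TPM in PV-10 tumours and 5.61 ± 1.53 TPM in PBS tumours. In PV-10 tumours no pair of neighbours in this order differed by more than the sum of its SDs. In PBS tumours Dusp6 did not differ from Etv4 by that measure, nor did neighbours among Dusp5, Spry2, Nras and Dusp4, while the other neighbours differed by more.

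The changes of the members were set beside those of genes of similar transcript length and of similar level, without a test. In classes of the longest annotated transcript, genes of 2000 to 3000 bases had a median log2 change of 0.47 (quartiles -0.31 and 1.71), those of 3000 to 4000 bases 0.17 (quartiles -0.54 and 1.501) and those of 4000 to 6000 bases -0.18 (quartiles -0.78 and 0.89). All 7 targets lay below the lower quartile of their class, and Hras and Nras lay between the quartiles of theirs. The lengths implied by counts over TPM were shorter for Hras, Etv4 and Etv5, with PV-10 means of 1211, 856 and 1712 bases. In the classes of those lengths their places were the same (quartiles 0.19 and 1.92 up to 1000 bases, -0.08 and 1.67 for 1000 to 2000 bases). By mean level, genes of 10 to 100 CPM had a median of -0.37 (quartiles -0.87 and 0.28) and those of 100 to 1000 CPM -0.51 (quartiles -1.15 and 0.39). Among genes of their level, Dusp4, Dusp5, Spry4, Etv4 and Etv5 lay below the lower quartile, Dusp6 and Spry2 between the lower quartile and the median, Nras between the quartiles and Hras above the upper quartile. With the trend with length and GC content removed, the targets had log2 changes of -0.80 (Dusp5) to -1.46 (Dusp4), Etv4 -1.02 and Etv5 -0.97, with adjusted p from 0.0632 to 0.129. In that fit edgeR called 0 genes of any kind, and 3278 were higher and 2469 lower at an unadjusted p under 0.05. Trend removal was run with edgeR alone and used the length of the longest transcript.

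**Figure D3:**
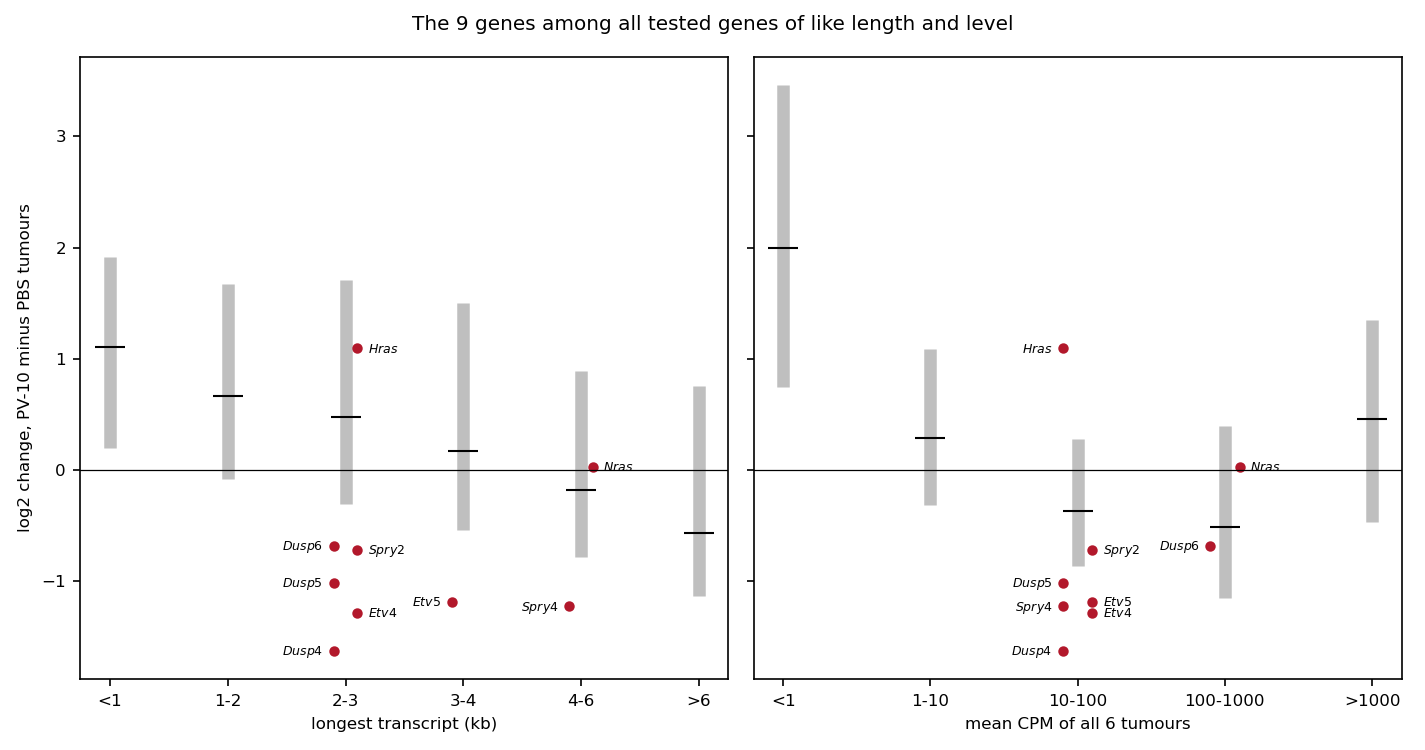
Log2 change, PV-10 minus PBS, of the 9 genes (red) beside all tested genes in classes of transcript length and of mean CPM. Grey bars span the quartiles and black ticks mark the median of each class. Every ERK target lies below the bar of its length class, whereas by level Dusp6 and Spry2 lie within the bar and Hras lies above it.

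The other genes of the pathway were taken from 10 lists that together held 81 tested genes. Of these, 1 was called higher and 5 lower, against 3.17% and 1.92% of all genes tested. By level, 260 of 7374 genes of 10 to 100 CPM and 140 of 1588 genes of 100 to 1000 CPM were called lower. Of the 81 genes, 67 had a negative log2 change, as did 9153 of the 22056 genes tested. Their median was -0.80, against 0.30 over all genes tested. Genes of 10 to 100 CPM had a median of -0.37 and those of 100 to 1000 CPM -0.51. Among the ETS factors and Capicua partners, 1 of 10 was called lower, all 10 changes were negative (median -1.08), and in 9 of 10 the PV-10 tumours all lay below the PBS tumours, against 16.8% of all genes. Among the feedback regulators outside the members, 1 of 11 was called lower and all 11 were negative (median -0.90), although 1 was positive without PV-10 tumour 1 and 4 were in PV-10 tumour 3 alone. Of 10 other ERK output genes edgeR called 0, and all 10 were negative (median -0.95). Of these, 6 had an unadjusted p under 0.05, against 30% of all genes, and DESeq2 called 3 lower, against 6% of all genes.

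Cic, which encodes Capicua, had 28.7, 52.9 and 132 CPM in PV-10 tumours, against 300.1, 308 and 258 CPM in PBS tumours. PV-10 tumour 3 was again the highest of its group and the groups did not overlap, but the change narrowly missed the threshold (log2 change -2.02, SE 0.50, adjusted p = 0.0502), and with the length and GC trend removed it was -1.09 (adjusted p = 0.0765). Its longest transcript has 8221 bases. Atxn1, whose product is a partner of Capicua, fell to 29.0 ± 8.97 CPM in PV-10 tumours, against 75.3 ± 10.5 CPM in PBS tumours (log2 change -1.38, adjusted p = 0.0443). Its change on log2(TPM + 1) was -0.39 (adjusted p = 0.440). Elk3, the ETS factor gene with the highest mean CPM of the list, had a log2 change of -0.85 (adjusted p = 0.174).

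Spred3, a Sprouty-related inhibitor of the Ras pathway, was the only feedback regulator outside the members that edgeR called lower. It had 26.9 ± 14.9 CPM in PV-10 tumours and 98.4 ± 5.51 CPM in PBS tumours (log2 change -1.87, adjusted p = 0.0443). Its relative Spred1 had a log2 change of -0.18 (adjusted p = 0.677), and Dusp7, a cytoplasmic ERK phosphatase gene, -1.30 (adjusted p = 0.0882). The output genes with the highest mean CPM were Ccnd1, which encodes cyclin D1, at 514 ± 260 CPM in PV-10 tumours and 1065 ± 124 CPM in PBS tumours (log2 change -1.05, adjusted p = 0.0929), and Hmga2, a chromatin protein gene, with a log2 change of -0.72 (adjusted p = 0.201).

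Upstream of ERK, 2 of 9 GTPase-activating protein genes, which switch Ras off, were called lower, with a median of -0.71. Among all genes tested 1.92% were called lower. Nf1, the neurofibromin gene, fell to 76.7 ± 33.1 CPM in PV-10 tumours, against 219 ± 23.5 CPM in PBS tumours (log2 change -1.52, adjusted p = 0.0451). Rasa1 had a log2 change of -0.34 (adjusted p = 0.376). Of 6 adaptor genes 1 was called lower, the ubiquitin ligase gene Cbl (log2 change -1.78, adjusted p = 0.0443), which had 58.0 ± 32.4 CPM in PV-10 tumours and 199 ± 3.21 CPM in PBS tumours. Frs2, an adaptor of fibroblast growth factor receptors, had a change of -0.64 (adjusted p = 0.218). The longest transcripts of Nf1, Cbl and Atxn1 have 11917, 11372 and 10569 bases, in a class of genes over 6000 bases whose median log2 change was -0.57. With the length and GC trend removed, Nf1 changed by -1.15, Cbl by -1.34, Spred3 by -1.43 and Atxn1 by -0.88, none called.

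No gene was called by edgeR among the 8 exchange factor genes, which switch Ras on, the 4 Ras GTPase genes outside the members, the 7 lipid-processing enzyme genes or the 10 genes for RAF, MEK, ERK and RSK kinases. Their medians were -0.26, -0.26, -0.66 and -0.85, and 3, 1, 6 and 5 of them had an unadjusted p under 0.05, against 30% of all genes. DESeq2, with 15.1% of all genes called higher and 6% lower, called 2 exchange factors higher and 1 lower, 0 of the Ras GTPase genes, 2 enzyme genes higher and 1 lower, and 3 kinase genes lower. The median of the exchange factors was 0.24 with the length and GC trend removed. Sos1 and Sos2, the ubiquitous exchange factors, had log2 changes of -1.01 (adjusted p = 0.0968) and -0.73 (adjusted p = 0.198). Rps6ka3, a kinase gene downstream of ERK, had -1.04 (adjusted p = 0.0649). The palmitoylation genes Zdhhc9 and Golga7, whose products form one enzyme that acts on human HRAS and NRAS, had log2 changes of -1.63 (adjusted p = 0.0670) and 0.65 (adjusted p = 0.111). The Ras GTPase genes outside the members had 2 negative and 2 positive log2 changes, from -0.998 to 0.42.

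Among 6 scaffold genes, Lamtor3, which encodes a late endosomal scaffold of MEK and ERK, rose to 107 ± 39.7 CPM in PV-10 tumours, against 35.04 ± 1.57 CPM in PBS tumours (log2 change 1.61, adjusted p = 0.0443). Its change was 1.14 with the length and GC trend removed (adjusted p = 0.0601) and 0.59 on log2(TPM + 1) (adjusted p = 0.160). Iqgap1 and Shoc2, the scaffold genes with the highest mean CPM, had log2 changes of -1.25 (adjusted p = 0.0649) and -0.34 (adjusted p = 0.410). The calls of Lamtor3, Nf1, Cbl, Atxn1 and Spred3 were each lost when any tumour other than PV-10 tumour 3 was left out (adjusted p 0.0735 to 0.219). Each of those fits called at most 5 genes higher and 1 lower among all genes. The median of the scaffold list was 0.13 on counts and -0.63 on log2(TPM + 1), so it had no direction that held on both scales.

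**Figure D4:**
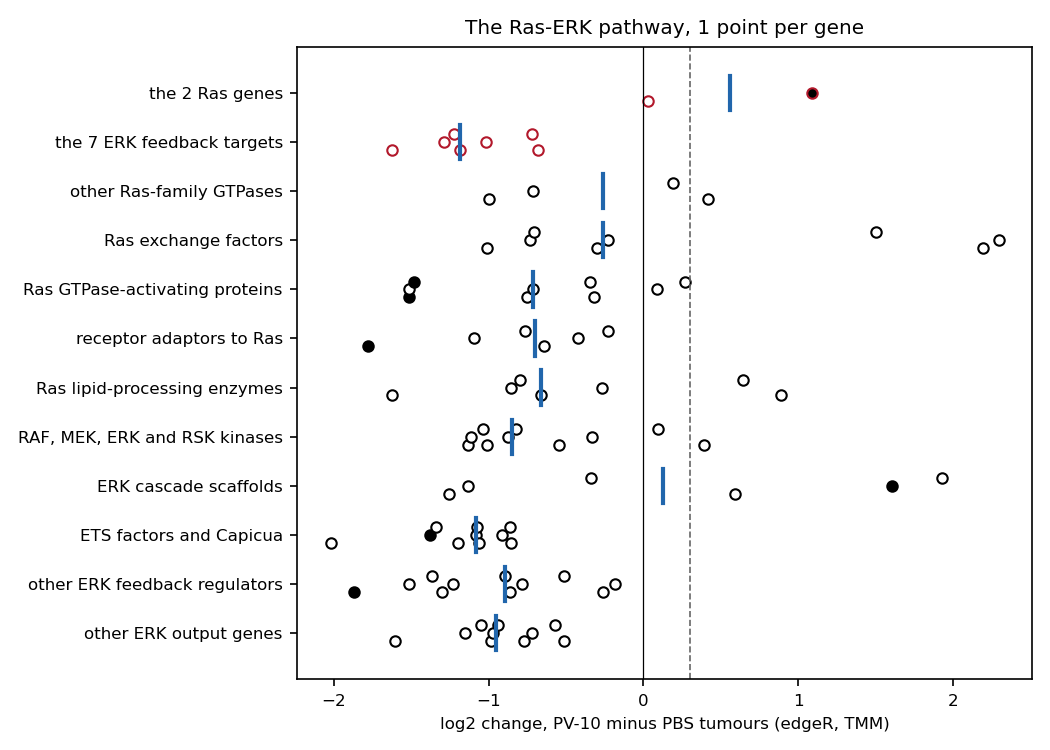
Log2 change, PV-10 minus PBS, of every tested gene of the 9 members and the 10 pathway lists, 1 point per gene. Filled points passed the test, blue bars are medians, and the dashed line is the median of all genes tested, 0.30. Genes of 10 to 100 CPM had a median of -0.37 and those of 100 to 1000 CPM -0.51. The medians of the 7 targets and of every pathway list other than the scaffolds lie below 0 (that of the exchange factors lies above 0 with the length and GC trend removed), and the filled points include Hras, Lamtor3, Nf1, Cbl, Atxn1 and Spred3.

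Genes with the profile closest to Hras and Dusp6 were sought by Pearson correlation of log2 CPM over the 6 tumours among 11888 genes. The 6 tumours form 2 groups and share one scaling, so these values describe the profiles and carry no test. Closest to Hras were Acp1 (r = 0.998), Ndufb3 (r = 0.998) and Dgcr6 (r = 0.996), and 838 genes had r over 0.95. Ndufb3, a gene for a subunit of respiratory complex I, rose (log2 change 1.601, adjusted p = 0.0443), while Acp1, a phosphatase gene, had 1.01 (adjusted p = 0.0526). Closest to Dusp6 were Rcn1 (r = 0.999), Mybbp1a (r = 0.998) and Slc9a3r1 (r = 0.998), and 1658 genes had r over 0.95. The profile of each was therefore shared with many genes.

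In whole tumours, fewer cells of a type and less RNA per cell cannot be told apart. Summed over 8 epithelial markers, the level was 511 to 694 CPM in PV-10 tumours and 521 to 866 CPM in PBS tumours. Krt8 and Krt18, keratin genes of simple epithelium, accounted for most of it. Krt8 averaged 199 ± 62.2 CPM in PV-10 tumours and 324 ± 79.4 CPM in PBS tumours (log2 change -0.71, adjusted p = 0.175), and Krt18 averaged 323 ± 27.8 CPM in PV-10 tumours and 311 ± 71.8 CPM in PBS tumours (log2 change 0.05, adjusted p = 0.910). Krt19 averaged 56.3 ± 11.1 CPM in PV-10 tumours and 53.01 ± 26.6 CPM in PBS tumours. Cdh1, the E-cadherin gene, averaged 4.25 ± 1.29 CPM in PV-10 tumours and 9.27 ± 0.881 CPM in PBS tumours, without overlap (log2 change -1.12, adjusted p = 0.0627). None of the 8 markers was called, and the changes of Krt8 and Cdh1 lay within the range of those of the ERK targets. The remaining markers of the labelled cell type were low, with positive changes: Epcam averaged 0.801 CPM in PV-10 tumours and 0.233 CPM in PBS tumours, with 0 counts in PBS tumour 1, and Krt5, Krt14 and Trp63 averaged at most 2.14 CPM in either group. Fibroblast markers summed to 2961 to 5705 CPM in PV-10 tumours and 2340 to 5291 CPM in PBS tumours, and endothelial markers to 103 to 335 CPM in PV-10 tumours and 185 to 372 CPM in PBS tumours. Macrophage markers, with 5 of 5 changes negative and none called, summed to 502 to 624 CPM in PV-10 tumours and 750.4 to 1179 CPM in PBS tumours and did not overlap. Markers of T cells summed to 5.94 to 27.2 CPM in PV-10 tumours and 4.79 to 13.9 CPM in PBS tumours, and those of neutrophils to 4.44 to 11.8 CPM in PV-10 tumours and 6.55 to 9.13 CPM in PBS tumours. Markers of skeletal muscle summed to 3.83 to 284 CPM in PV-10 tumours and 2.17 to 14.6 CPM in PBS tumours, and those of adipocytes to 0 to 7.39 CPM in PV-10 tumours and 0 to 0.628 CPM in PBS tumours. The part of these cells in the levels of the 9 genes was not tested.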

How the data were processed

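RNA from 6 tumours (3 PV-10, 3 PBS) was sequenced from 100 ng per tumour in strand-specific libraries and read as 100-base pairs. Adapters were found with BBMerge 37.02 and removed with cutadapt 1.8.1, reads were aligned to mm10 with STAR 2.7.7a and gene counts were made with RSEM 1.3.0 and Gencode M21, per the labels' protocols. The deposited count table holds whole-number counts that are not normalized. TPM values, deposited by the authors as a second table, divide reads by transcript length and sum to 1e+06 in each column. The authors' own tests with DESeq2, named per the labels' protocols, were not used. RSEM shares reads among similar genes, so paralogs and pseudogenes of the members can take some of their reads.

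The main test was edgeR 4.0.16 (R 4.3.3): filterByExpr at its defaults, TMM, a robust quasi-likelihood F test and Benjamini-Hochberg adjustment over 22056 genes, called under 0.05. SE is the log2 change divided by the square root of F. The biological coefficient of variation was 0.777, and 601 genes share the lowest adjusted p, 0.0443. Log2 CPM in correlations used a prior count of 2. The fit was checked on simulated counts. DESeq2 1.42.0 and limma 3.58.1 gave alternatives, along with other scalings, filters, TPM pseudocounts of 1 and 0.1, protein-coding genes alone, removal of each library's trend with length and GC content (natural splines, 5 degrees of freedom) and each tumour left out. PV-10 tumour 3 alone against PBS was added after seeing the data. Transcript length is that of the longest Gencode M21 transcript.

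The 9 members and the lists were chosen with earlier results of these data known. Named genes are the members, every called gene of a pathway list, the 2 tested genes of each list with the highest mean CPM, and the 3 genes most correlated with Hras and with Dusp6 (average log2 CPM of at least 1). Some genes the rule gives are not reported here. Promoter sequences are RefSeq's on GRCm38.p6.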

Additional observations from a re-analysis of the deposited data

How the results depend on the processing

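The log2 changes of the 7 ERK targets were negative under all 18 alternatives, and that of Hras was positive under all 18. Their ranges were 0.10 to 1.35 for Hras, -2.54 to -0.84 for Dusp4, -1.89 to -0.58 for Dusp5, -1.48 to -0.24 for Dusp6, -1.54 to -0.19 for Spry2, -2.09 to -0.43 for Spry4, -2.10 to -0.75 for Etv4 and -2.11 to -0.58 for Etv5. Calls depended on the setting: Etv4 and Etv5 were called in 11 of 18, Hras in 9, Dusp4 and Spry4 in 6, Dusp5 in 5, Dusp6 in 4, Spry2 in 3 and Nras in 0. Nras changed sign with library size alone (-0.068), with no low-count filter (-0.052), on log2(TPM + 1) (-0.70) and log2(TPM + 0.1) (-0.72), and across single tumours left out (-0.092 to 0.11). The median change of all genes moved from 0.30 to 1.84 in DESeq2, 1.63 with no low-count filter, where many genes with few counts enter, and -0.21 and -0.43 on the TPM scales. Relative to it, the median of the 7 targets was -1.49 in the main fit and ran from -2.95 in DESeq2 and -2.90 with no low-count filter to -0.56 in PV-10 tumour 3 alone, with -1.59 on log2(TPM + 1) and -1.21 with the length and GC trend removed. Hras lay above it by 0.79 in the main fit but below it in DESeq2 and with no low-count filter (-0.62 in each).

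Against 699 genes higher and 423 lower, 1 member higher and 0 lower, and 1 other pathway gene higher and 5 lower, DESeq2 gave 5875 and 2338 genes, 6 members lower (as were 6% of all genes), and 6 and 28 pathway genes. DESeq2 size factors gave 1469 and 1068 genes, 2 members lower (4.84%), and 2 and 12 pathway genes. Library size alone gave 980 and 1461 genes, 2 members lower (6.62%) and 17 pathway genes lower. No filter gave 2037 and 2627 genes, 5 members lower (6.7%), and 2 and 37 pathway genes. A mean count of at least 50 gave 1593 and 1112 genes, 2 members lower (7.04%), and 3 and 13 pathway genes. Limma-voom gave 866 and 1231 genes, 2 members lower (5.58%), and 2 and 16 pathway genes. Log2(TPM + 1) gave 162 and 2755 genes, 0 and 7 members (12.5% lower), and 0 and 34 pathway genes, and log2(TPM + 0.1) gave 342 and 2833, 0 and 7, and 0 and 35. Protein-coding genes alone gave 1549 and 1256 genes, 2 members lower (7.77%), and 3 and 15 pathway genes. With the length and GC trend removed, 0 genes, 0 members and 0 pathway genes were called by edgeR in either direction. PV-10 tumour 3 alone gave 15 and 3 genes, 0 members and 0 pathway genes. With each tumour left out in turn, counts ran from 1 to 6884 genes higher and 0 to 4515 lower, 0 to 1 members higher and 0 to 7 lower, and 0 to 7 pathway genes higher and 0 to 57 lower, and the Hras to Nras log2 ratio from 0.67 to 1.10. The highest counts came without PV-10 tumour 3, and with any other tumour left out at most 5 genes were higher and 1 lower. The causes were not tested.

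Deviations of same-numbered tumours from their group means correlated at -0.0486, 0.0711 and 0.0722. These values gave no sign of pairing by replicate number, though they cannot exclude it. With the replicate number as a block, 1054 genes were higher and 1818 lower, with 4 members (8.24% of all genes) and 24 other pathway genes lower, and the Hras to Nras log2 difference was 0.83 (exact sign-flip test, p = 0.25, the smallest it can give). Depth did not limit detection of any member, and counting floors cover counting error only.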

Other observations

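Dividing counts by TPM, scaled on 633 genes with 1 annotated transcript, approximates the length behind each TPM value. For Hras this was 1259, 1166 and 1209 bases in PV-10 tumours 1, 2 and 3 and 1127, 1012 and 1116 bases in PBS tumours 1, 2 and 3, with every PV-10 value above every PBS value, while its longest transcript has 2828 bases. The groups also did not overlap, with PV-10 slightly lower, for Dusp4, Dusp5 and Spry2, which have 1 transcript each. The share of all genes without overlap was not determined. For Etv4 the mean was 856 bases in PV-10 tumours and 880 bases in PBS tumours. For Etv5 it varied among tumours, at 1682, 1548 and 1905 bases in PV-10 tumours and 1370, 2148 and 1532 bases in PBS tumours. For Dusp4, with 1 transcript, it was 2826 bases in PV-10 tumours and 2837 bases in PBS tumours. That transcript has 2740 bases, so the implied lengths are approximate. The deposited gene values hold no transcript-level counts, so the transcripts behind these lengths were not analysed here.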
